A study of Mus musculus with 13 samples.

Results

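Expression of 8 genes for chymotrypsins, elastases and carboxypeptidases was examined in RNA-seq profiles of mouse pancreas. These 8 of the 23366 genes in the table were chosen by name as protein-digesting enzymes of the exocrine pancreas outside the trypsin family. They are the chymotrypsins Ctrb1, Ctrl and Ctrc, the elastases Cela1, Cela2a and Cela3b, and the carboxypeptidases Cpa1 and Cpb1. Ctrc was included by its name, although RefSeq annotates it as a transcribed pseudogene. The pancreas was profiled in 13 female mice, with one library per mouse. Young mice (n = 4) were 13 weeks old and untreated, old mice (n = 5) were 55 weeks old and untreated, and old-OSKM mice (n = 4) were labelled as 58 weeks old, because they received doxycycline for 1 week from 55 weeks of age and then recovered for 2 weeks. All 13 mice, the controls included, were of the i4F-B line, in which doxycycline switches on a cassette of Oct4, Sox2, Klf4 and c-Myc (OSKM) throughout the body and in which that cassette sits in the Pparg gene. Since only old-OSKM mice drank doxycycline, with sucrose in the water, the drug, the sucrose and the factors cannot be told apart, and neither can their effect and the 3 further weeks of age.

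Acinar cells, the main cell type of the pancreas, make digestive enzymes as inactive zymogens and store them in granules until a meal triggers their release. In the gut trypsin cuts these zymogens into active enzymes. Chymotrypsins and elastases are serine proteases that cut inside a protein chain, chymotrypsins beside large hydrophobic residues and elastases beside small ones. Carboxypeptidases are zinc enzymes that then remove single residues from the end of the chain. The transcription factor complex PTF1, which contains PTF1A and RBPJL, is known to bind an E-box next to a TTTCCC-like box in the promoters of many of these genes.

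The sequence that the chymotrypsin and elastase genes share most plainly is that around the catalytic serine. In this enzyme family the serine is followed by a pair of glycines and a proline and preceded by a glycine and an acidic residue, and codons for these residues in this order were found on the forward strand of the GENCODE transcripts of all 6 genes, where they stand in capitals. The search took any codon for glycine, aspartate, glutamate and proline, and only serine codons that start with TC. Without regard to reading frame it found the same letters in 107 of 21877 genes with a protein-coding transcript (0.489%). Each line is written from 5′ to 3′ along the transcript.
Ctrb1: cctgcatgGGTGACTCTGGTGGCCCcctcg
Ctrl: catgtcagGGTGACTCAGGAGGCCCtcttg
Ctrc: cctgtaacGGAGACTCTGGTGGCCCactga
Cela1: gatgccagGGTGATTCTGGGGGACCcctcc
Cela2a: gctgcaatGGGGACTCTGGCGGACCactga
Cela3b: gctgcaacGGTGACTCTGGAGGACCcctca

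Carboxypeptidases use a zinc ion in place of this serine, and the transcripts of Cpa1 and Cpb1 did not contain this run of codons.

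The promoter windows of the 2 genes that ranked first and second in every mouse (Ctrb1 and Cela2a), of Cela1, which held all 4 motifs searched, and of Ctrl, the gene with the clearest difference between young and old mice, are shown next, each ending at the base before the RefSeq start (GRCm38.p6, minus strand). They lie at chr8:111691011-111691220 (Ctrb1), chr4:141826006-141826215 (Cela2a), chr15:100687921-100688130 (Cela1) and chr8:105933863-105934072 (Ctrl). Capitals mark an E-box (CANNTG), the RBPJ-type box TTTCCC, the GATA-factor site TGATAAG and the TATA box TATAAA, on either strand. The letters were chosen after the sequences had been seen.
Ctrb1: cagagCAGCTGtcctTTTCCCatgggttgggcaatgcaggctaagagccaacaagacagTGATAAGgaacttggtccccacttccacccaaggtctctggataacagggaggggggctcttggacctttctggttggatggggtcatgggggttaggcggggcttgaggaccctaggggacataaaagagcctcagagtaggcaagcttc
Cela2a: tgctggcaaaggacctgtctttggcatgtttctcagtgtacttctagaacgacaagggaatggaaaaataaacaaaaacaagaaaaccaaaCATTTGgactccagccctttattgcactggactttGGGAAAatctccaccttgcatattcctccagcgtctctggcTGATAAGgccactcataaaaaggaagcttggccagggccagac
Cela1: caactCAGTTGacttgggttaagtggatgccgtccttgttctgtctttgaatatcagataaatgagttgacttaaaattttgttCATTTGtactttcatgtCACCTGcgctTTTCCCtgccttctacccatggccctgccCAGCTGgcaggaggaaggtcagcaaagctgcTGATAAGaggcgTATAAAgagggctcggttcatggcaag
Ctrl: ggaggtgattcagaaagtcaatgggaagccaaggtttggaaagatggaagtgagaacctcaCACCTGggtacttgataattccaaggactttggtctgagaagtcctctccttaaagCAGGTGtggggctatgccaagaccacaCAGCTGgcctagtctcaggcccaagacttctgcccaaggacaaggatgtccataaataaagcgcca

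Windows were given for 7 of the 8 genes, and in the 250 bases before the start all 7 held an E-box, as did 66.2% of all 32851 windows of this length. A TTTCCC box was present in 4 of the 7 (Ctrb1, Cela1, Cela2a and Cpa1) against 21.9% of all windows. A TGATAAG site was present in 4 of the 7 (Ctrb1, Cela1, Cela2a and Cela3b) against 2.05% of all windows. The exact letters TATAAA occurred in Cela1 alone of the 7 and in 12.4% of all windows. Ctrl held 4 E-boxes in this window and none of the other letters, and the GATA site and an E-box of Cela3b overlapped. A match of letters is a description of the sequence and was not tested for binding.

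The 8 genes lie on 5 chromosomes (GRCm38, GENCODE M21). Ctrb1 (Entrez 66473, chr8:111686519-111691010) and Ctrl (109660, chr8:105932003-105933862) are both on the minus strand of chromosome 8, 5752656 bases apart. Cela2a (13706, chr4:141814962-141826160) and Cela3b (67868, chr4:137420999-137430540) are both on the minus strand of chromosome 4. Ctrc (76701, chr4:141814962-141846359, minus strand) is annotated by GENCODE as protein-coding, with a read-through transcript across Cela2a that makes both genes overlap by 11199 bases, and by RefSeq as a transcribed pseudogene that does not reach Cela2a. Cela1 (109901, chr15:100674421-100687921, minus strand), Cpa1 (109697, chr6:30639218-30645363, plus strand) and Cpb1 (76703, chr3:20248264-20275733, minus strand) stand alone. Of the 50-base words in the principal transcript, 25.6% of those of Cela2a were also found in transcripts of Ctrc or Casp9, and 33.2% of those of Cela3b in Cela3a, whereas the other 6 genes shared none with another gene. How the authors' counting divided such reads was not tested, so the levels of Cela2a, Cela3b and Ctrc are less certain than the others.

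The values were the deposited log2 RPKM, that is log2 of reads scaled to transcript length and to library size, after quantile normalization. This normalization gives every mouse the same set of values, so that the highest gene of each mouse has the same value, and so on down the list. At ranks 1 to 20 the value was identical in all 13 mice, and neighbouring ranks differed by 0.04 to 0.21 on the log2 scale. For the members in these ranks the level was therefore a rank, and a change in a gene that kept its rank could not be seen. A gene that lost a rank may itself have been lower or have been passed by another gene. The table holds no counts, so the depth of each library and the counting error of each value are unknown.

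The tissue label was checked against marker genes. All 8 acinar markers were present, at a summed 6720 to 7171 RPKM per mouse, and all 5 gut epithelium markers had mean log2 RPKM below -1 in each group. The acinar sum rests mainly on Cel, Pnlip, Amy2a5, Prss2 and the member Cpa1. These lie in the top ranks, so the narrow range of the sum is set in large part by the normalization. In bulk tissue, fewer cells of a type and less RNA per cell cannot be told apart. Some mice stood apart. In the young mouse JCX1158 the liver markers summed to 63.6 RPKM, against 3.04 to 6.70 in the other 12 mice, and the old-OSKM mouse JCX1011 had the lowest median correlation with the other mice (r = 0.967 across genes, against 0.972 to 0.984 for the others). The old-OSKM mouse JCX1025 had a median correlation of 0.972, like JCX1158, and the highest summed markers of T cells (5.15 RPKM, against 0.592 to 1.62 in the other 12 mice), of B and plasma cells (13.5, against 0.850 to 8.19) and of macrophages (38.2, against 9.06 to 31.4). Results that rest on one of these 3 mice are given with and without it.

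The members ranked among the highest genes of the pancreas. Of the 8 genes, 7 were within the top 18 of 23366 in every mouse, and 6 were within the top 16. On the RPKM scale, which accounts for transcript length, the geometric mean over the 13 mice was 2208.5 for Ctrb1, 2054.5 for Cela2a, 1289 for Cela1, 1231 for Cpb1, 1195 for Cpa1, 965 for Ctrl, 889 for Cela3b and 23.2 for Ctrc. Together they made up 15.9% ± 0.18 (SD, n = 4) of the summed RPKM in young, 15.7% ± 0.24 (n = 5) in old and 15.6% ± 0.29 (n = 4) in old-OSKM mice, a share that rank fixes in large part.

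Some neighbours in this order changed places between mice and others never did. Ctrb1 was above Cela2a by a log2 difference of 0.10 in 13 of 13 mice, and Cela2a was above Cela1 by 0.67 ± 0.10 (SD over mice) in 13 of 13. Cela1, Cpb1 and Cpa1 were not separated beyond their spread: Cela1 was above Cpb1 by 0.07 ± 0.12 in 11 of 13 mice, and Cpb1 above Cpa1 by 0.04 ± 0.10 in 9 of 13. Cpa1 was above Ctrl by 0.31 ± 0.15 in 13 of 13. Ctrl was above Cela3b by 0.12 ± 0.11 in 11 of 13, namely in all 4 young, 3 of 5 old and all 4 old-OSKM mice. Cela3b was above Ctrc by 5.26 ± 0.28 in 13 of 13.

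**Figure D1:**
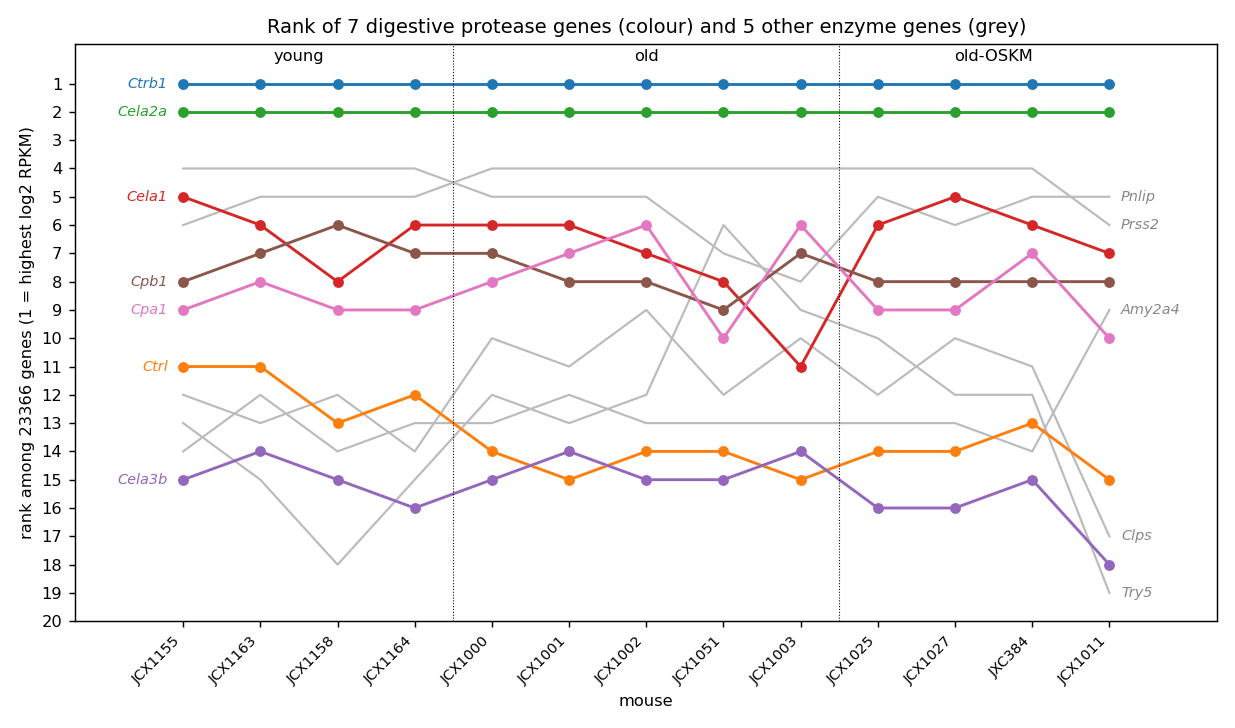
Rank of 7 of the genes (coloured points, one per mouse, grouped as young, old and old-OSKM) and of 5 other enzyme genes (grey lines) among 23366 genes, with rank 1 at the top. Lines only join the values of one gene. Ctrb1 and Cela2a keep ranks 1 and 2 in all 13 mice, and Ctrl lies at ranks 11 to 13 in young and 14 to 15 in old mice.

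In the comparison of old with young mice, which asks what differs with age, none of the 8 genes reached the study's threshold of a fold change over 1.5 with a raw p under 0.01, which 0.886% of all genes passed. In every comparison Ctrb1 and Cela2a could not be tested, and the other top-rank members could pass only by a move of several ranks. The value fell only from 1374 RPKM at rank 5 to 945 RPKM at rank 14, so their absence from the calls says little. One of the 8, Ctrl, had a raw p under 0.05 (5.52% of all genes had one, and 2.52% of all genes had one with lower values in old mice), and Ctrl was also the only member whose young and old values did not overlap (2.71% of all genes had separate groups, and 1.22% of all genes were separate and lower in old mice). No member reached an adjusted p under 0.05 in any comparison, against 0.0813% of all genes in old against young, 0.00428% in old-OSKM against old and 0.0428% in old-OSKM against young mice. The values of Ctrl were lower in all old than in all young mice by a fraction of a log2 unit, whereas those of the elastases, the carboxypeptidases and Ctrc overlapped between the groups.

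Ctrl encodes chymotrypsin-like protease, a minor relative of chymotrypsin B. Its log2 RPKM was 10.08, 10.08, 9.95 and 9.997 in the young mice JCX1155, JCX1163, JCX1158 and JCX1164. It was 9.88, 9.81, 9.88, 9.88 and 9.81 in the old mice JCX1000, JCX1001, JCX1002, JCX1051 and JCX1003. The lowest young mouse was above the highest old mouse. The mean was 10.03 ± 0.07 (SD, n = 4; 1042 RPKM) in young and 9.85 ± 0.04 (n = 5; 925 RPKM) in old mice, a difference of -0.17 on the log2 scale (SE 0.05, 95% interval -0.27 to -0.07). The raw p of limma was under 0.01 and the Benjamini-Hochberg adjusted p over all genes was 0.392. An exact two-sided permutation test over the mice gave p = 0.0079, the smallest it can give with these group sizes. In ranks, Ctrl held places 11, 11, 13 and 12 in young mice and 14, 15, 14, 14 and 15 in old mice.

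Several genes stood above Ctrl in some groups and not in others. The amylase gene Amy2a4 was above Ctrl in 0 of 4 young, 5 of 5 old and 3 of 4 old-OSKM mice, and the trypsinogen gene Try5 in 0 of 4, 5 of 5 and 3 of 4. Clps, which encodes the lipase cofactor colipase, was above Ctrl in 1 of 4 young, 5 of 5 old and 3 of 4 old-OSKM mice. In the other direction, the gene with Entrez identifier 100861531, which matched no symbol, was above Ctrl in 2 of 4 young, 0 of 5 old and 1 of 4 old-OSKM mice. Whether Ctrl was lower or these genes were higher cannot be told apart in rank-normalized values. Without the young mouse JCX1158, the one with liver transcripts, the difference was -0.20 (exact permutation p = 0.018, the smallest possible). Samples carried identifiers in separate runs, and old mice were lower in each: in the first run young mice had a mean of 10.08 (n = 2) and old mice 9.86 (n = 4), and in the second run young mice had 9.97 (n = 2) and the 1 old mouse 9.81.

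The other chymotrypsins gave no test or no difference. Ctrb1, which encodes chymotrypsinogen B, was the highest gene in all 13 mice, at 11.11 throughout, so that it could not be tested and its constant value is no evidence of an unchanged level. Ctrc is named for chymotrypsin C, which in other species is known to cleave trypsinogen. GENCODE annotates the mouse gene as protein-coding and RefSeq as a transcribed pseudogene, and whether it yields an active enzyme was not tested. Ctrc was the one low member. Its log2 RPKM was 4.66, 4.44, 4.58 and 4.58 in young mice and 4.47, 4.58, 4.39, 4.604 and 4.20 in old mice, in the order used for Ctrl. Both groups overlapped, with old mouse JCX1003 the lowest, and they differed by -0.12 (SE 0.14, 95% interval -0.43 to 0.19, exact permutation p = 0.25).

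Among the elastases, Cela2a was second in all 13 mice at 11.005 and could not be tested either. Cela1 was 10.42, 10.38, 10.24 and 10.38 in young and 10.38, 10.38, 10.30, 10.24 and 10.08 in old mice. The groups overlapped and old mouse JCX1003 was lowest, with a difference of -0.08 (SE 0.07, 95% interval -0.23 to 0.07, exact permutation p = 0.34). Cela3b was 9.81, 9.88, 9.81 and 9.76 in young and 9.81, 9.88, 9.81, 9.81 and 9.88 in old mice. Its groups overlapped almost completely, with a difference of 0.02 (SE 0.05, 95% interval -0.09 to 0.14, exact permutation p = 0.64).

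The carboxypeptidases are a complementary pair: Cpa1 encodes the enzyme that removes aromatic and aliphatic end residues and Cpb1 the one that removes lysine and arginine. Cpa1 was 10.16, 10.24, 10.16 and 10.16 in young and 10.24, 10.30, 10.38, 10.12 and 10.38 in old mice. Old mouse JCX1051 was the lowest of all 9 and the other 4 old mice were at or above the highest young mouse, so the groups overlapped. The difference was 0.11 (SE 0.06, 95% interval -0.03 to 0.24, exact permutation p = 0.12). Without JCX1051 it was 0.15, limma's raw p fell under 0.05 and the exact permutation p was 0.057. Cpb1 was 10.24, 10.30, 10.38 and 10.30 in young and 10.30, 10.24, 10.24, 10.16 and 10.30 in old mice, overlapping groups with a difference of -0.06 (SE 0.04, 95% interval -0.15 to 0.04, exact permutation p = 0.28). Cpb1 was above Cpa1 in 4 of 4 young but 2 of 5 old mice.

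**Figure D2:**
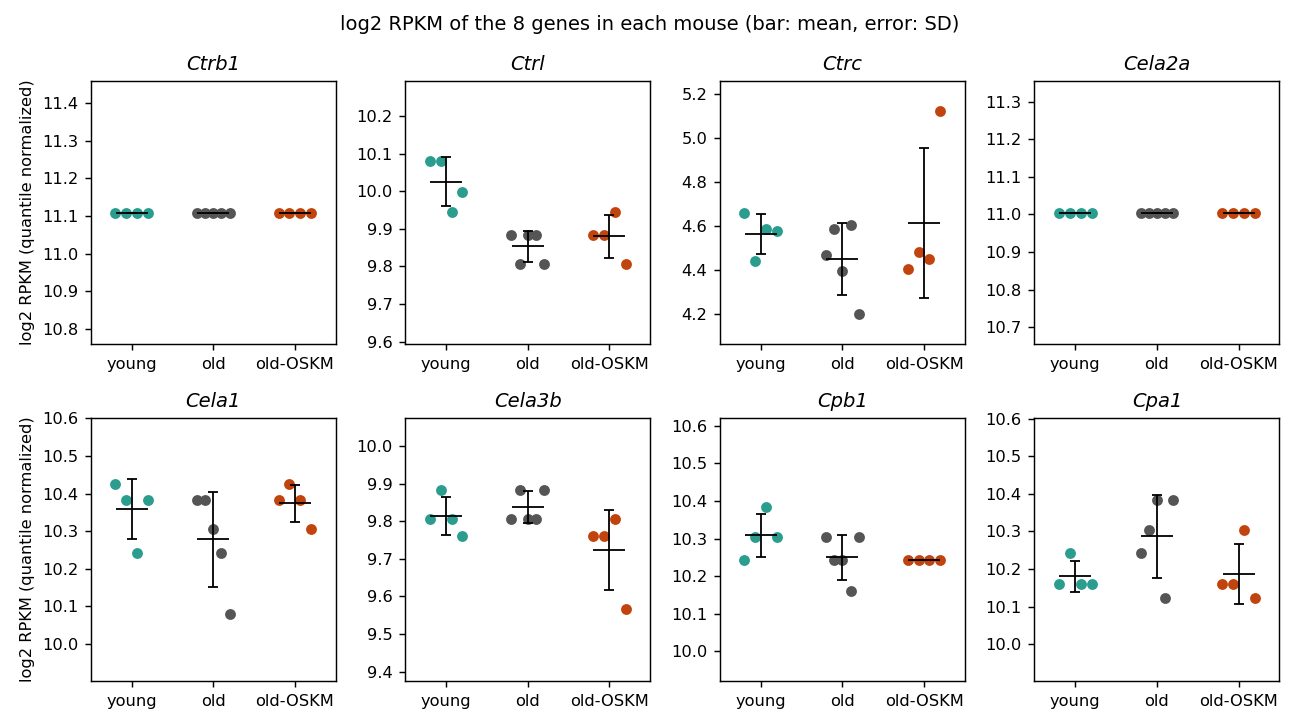
Log2 RPKM (vertical axis, a separate scale for each gene) of the 8 genes in each mouse, with the group mean as a bar and the SD as error. Points at the same height share a rank value. Young and old points are separate for Ctrl alone, Ctrb1 and Cela2a have one value in all mice, and one old-OSKM mouse stands high for Ctrc at 5.12 and low for Cela3b at 9.57.

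In the comparison of old-OSKM with old mice, which asks what differs after doxycycline, sucrose, OSKM and recovery together, none of the 8 genes reached the study's threshold (0.753% of all genes did), none had a raw p under 0.05 (8.07% of all genes did) and no member had separate groups (1.73% of all genes did). All 4 old-OSKM mice and 4 old mice carried identifiers of the first run, and old mouse JCX1003 carried one of the second. The smallest p belonged to Cela3b, and the values of Ctrl overlapped between the groups.

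Cela3b was 9.76, 9.76, 9.81 and 9.57 in the old-OSKM mice JCX1025, JCX1027, JXC384 and JCX1011. JXC384 was level with 3 of the old mice, so the groups met, and the other 3 old-OSKM mice were below all old mice. The means were 9.72 ± 0.11 (SD, n = 4) in old-OSKM and 9.84 ± 0.04 (n = 5) in old mice, a difference of -0.11 (SE 0.05, 95% interval -0.23 to 0.002, adjusted p = 0.547, limma). The exact two-sided permutation test gave p = 0.032, where limma's raw p just missed 0.05. JCX1011 carried much of the difference: without it the old-OSKM mean was 9.78 ± 0.03 (n = 3) and the difference -0.06 (exact permutation p = 0.14). Without JCX1025, the mouse with the most immune transcripts, the difference was -0.13 (exact permutation p = 0.071). The trypsinogen-like gene 2210010C04Rik was above Cela3b in 0 of 4 young, 0 of 5 old and 3 of 4 old-OSKM mice.

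Ctrl was 9.88, 9.88, 9.95 and 9.81 in the same 4 old-OSKM mice, within one rank of the old mice. The mean was 9.88 ± 0.06 (SD, n = 4), and it differed from old mice by 0.03 (SE 0.05, 95% interval -0.07 to 0.13, exact permutation p = 0.64). Ctrb1 and Cela2a again held ranks 1 and 2. Ctrc was 4.40, 4.48, 4.45 and 5.12, of which the value of JCX1011 was above all 12 other mice (4.20 to 4.66). Its difference from old mice was 0.17 (SE 0.14, 95% interval -0.14 to 0.48, exact permutation p = 0.46), and without JCX1011 it was -0.0048 (exact permutation p = 0.98), with an old-OSKM mean of 4.44 ± 0.04 (n = 3).

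Cela1 was 10.38, 10.42, 10.38 and 10.30 in old-OSKM mice, a range that overlapped with that of old mice, with a difference of 0.10 (SE 0.07, 95% interval -0.05 to 0.24, exact permutation p = 0.22). Cpa1 was 10.16, 10.16, 10.30 and 10.12, again overlapping with old mice, with a difference of -0.10 (SE 0.06, 95% interval -0.23 to 0.03, exact permutation p = 0.21). Limma's raw p for Cpa1 fell under 0.05 without old mouse JCX1051 (difference -0.14, exact permutation p = 0.086) and without old-OSKM mouse JXC384 (-0.14, exact permutation p = 0.11). Cpb1 was at rank 8 in all 4 old-OSKM mice, at 10.24, and differed from old mice by -0.01 (SE 0.04, 95% interval -0.10 to 0.09, exact permutation p = 1).

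The comparison of old-OSKM with young mice shares its groups with the comparisons above and is given for completeness. None of the 8 genes reached the study's threshold (0.625% of all genes did), and 1, again Ctrl, had a raw p under 0.05 (5.07% of all genes did, and 2.16% of all genes did with lower values in old-OSKM mice). The difference of Ctrl was -0.14 (SE 0.05, 95% interval -0.25 to -0.04, adjusted p = 0.706, limma), and the exact permutation test gave p = 0.057, where the smallest possible was 0.029. No member had separate groups (1.9% of all genes did): for Ctrl the groups touched, since old-OSKM mouse JXC384 and young mouse JCX1158 were both at rank 13. Without JCX1158 the groups were separate, with a difference of -0.17 (exact permutation p = 0.029, the smallest possible). The other 5 members that could be tested had exact permutation p between 0.14 and 1, with differences from -0.09 (Cela3b, 95% interval -0.21 to 0.03) to 0.05 (Ctrc, -0.28 to 0.38).

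**Figure D3:**
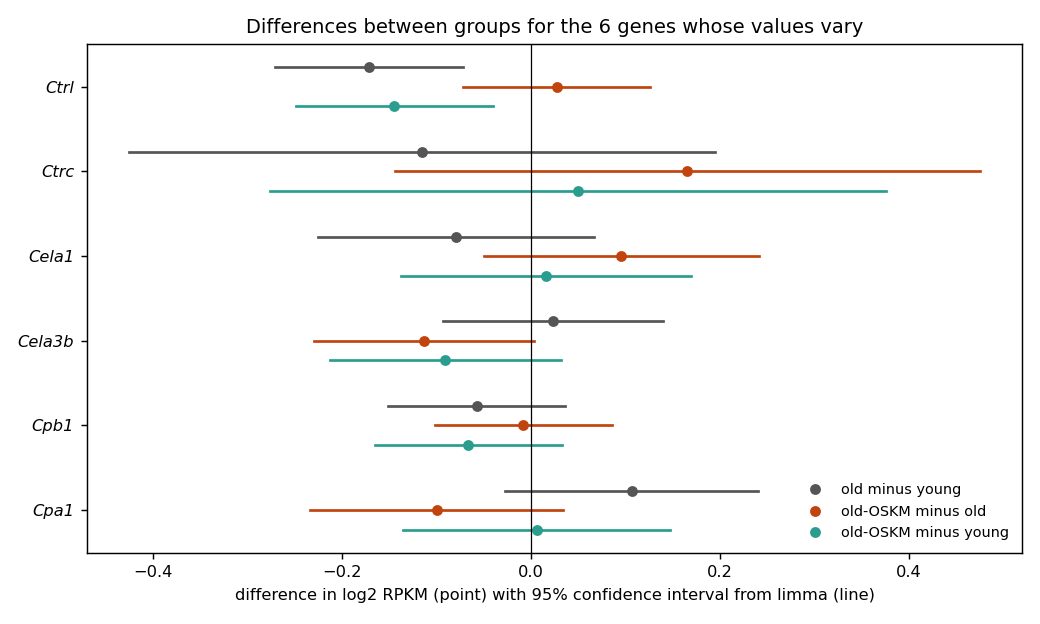
Difference in log2 RPKM between groups (points) with the 95% interval from limma (lines) for the 6 genes whose values varied, for the 3 pairs of groups, each with the older or treated group first. The intervals of Ctrl lie below 0 in both comparisons with young mice (-0.27 to -0.07 and -0.25 to -0.04), and all other intervals reach 0.

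The members can be read beside the other products of the acinar cell. Among 12 other acinar proteases and inhibitors, 0 reached the threshold in either direction in any comparison. In old against young mice the only one with a raw p under 0.05 was Prss2, which encodes a trypsinogen and was higher in old mice, at 10.62 ± 0.00 (SD, n = 5) against 10.41 ± 0.02 (n = 4), without overlap (adjusted p = 0.322, limma). Try5 was 10.10 ± 0.18 in old and 9.78 ± 0.16 in young mice (adjusted p = 0.91). In old-OSKM against old mice Prss1 alone had a raw p under 0.05, with a difference of -0.21 (adjusted p = 0.547), and Try5 differed by -0.22 (adjusted p = 0.608). The median difference of the members was -0.03 in old against young and 0.00 in old-OSKM against old mice, that of these 12 genes -0.0004 and -0.07, and that of all genes 0.001 and -0.04. The medians of the members include Ctrb1 and Cela2a, whose ranks never changed. In old-OSKM against old mice the 0.00 is the value of these genes, and it is no evidence of an unchanged level.

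Among 10 lipases, amylases and other enzymes none reached the threshold in any comparison. Pnlip, the pancreatic lipase, stood at rank 4 in all 4 young mice (10.62) and at ranks 5 to 8 in old mice (10.36 ± 0.09, n = 5), with a difference of -0.26 (adjusted p = 0.0923, limma). Prss2 stood at ranks 5 to 6 in young mice and at rank 4 in all 5 old mice, so that the order of this trypsinogen and this lipase was reversed. Clps differed by 0.14 in old against young mice (adjusted p = 1) and by -0.12 in old-OSKM against old mice (adjusted p = 0.608), and Rnase1, a ribonuclease, by -0.17 in the latter (adjusted p = 0.608). Of 9 granule proteins none reached the threshold, and 1, Sycn, which encodes syncollin, had a raw p under 0.05 (difference 0.46 in old against young mice, adjusted p = 0.704). Gp2, the main granule membrane protein, differed by 0.12 there (adjusted p = 1). In old-OSKM against old mice Sycn differed by -0.23 and Reg2 by -1.25 (adjusted p = 0.608 for both).

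Of 10 acinar transcription factors none had a raw p under 0.05 in any comparison. In old against young mice the smallest p were those of Foxa3 (difference -0.12) and Xbp1 (0.05), both with an adjusted p of 1. In old-OSKM against old mice they were those of Gata6 (-0.11) and Ptf1a, the DNA-binding subunit of PTF1 (-0.33), both with an adjusted p of 0.608.

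The old-OSKM mouse JCX1011 had low values for many genes of these lists. It was the lowest of all 13 mice, or level with the lowest, for 11 of the 12 other proteases and inhibitors, 7 of the 10 lipases and other enzymes, 9 of the 9 granule proteins and 5 of the 10 transcription factors. These counts include Prss2, where young mouse JCX1155 was level with JCX1011, and Amy2a5, which had the same value in all mice. Among the 8 members the count was 5: Cela3b, Ctrl and Cpa1, the last 2 with ties, and the constant Ctrb1 and Cela2a. The median deviation of JCX1011 from the mean over the mice was -0.35, -0.29, -0.49 and -0.19 log2 in these lists and -0.03 in the 8 members. The values of the members move in rank steps, and those of Ctrb1 and Cela2a never deviate, so the -0.03 does not show that the members were spared. These medians were not tested against each other. Ptf1a was 1.74 in JCX1011 and 2.47 to 3.14 in the other 12 mice, whereas Rbpjl was 4.20 in JCX1011 and 2.73 to 3.52 in the others. The islet markers summed to 505 RPKM in JCX1011, the highest of the mice, against 78.6 to 391 in the others. JCX1011 also had the highest summed markers of fibroblasts and stellate cells (72.8 RPKM, against 20.1 to 53.8), endothelium (21.3, against 9.37 to 17.2), ducts (49.5, against 34.3 to 47.3) and adipocytes (13.9, against 3.07 to 12.5), and the lowest of acinar cells (6720, against 6843 to 7171). The acinar sum includes Cpa1 and rests mainly on top-rank genes. By the median log2 RPKM of each list, JCX1011 was again highest for endothelium and ducts. By that median JCX1164 was higher for fibroblasts and stellate cells (2.64 against 2.49), and JCX1025 for adipocytes (0.40 against -1.23). The structural RNAs Rmrp and Rpph1 stood at ranks 13 and 14 in JCX1011, just above Ctrl, and at ranks 25 to 36 in the other mice. The gene with Entrez identifier 100861531 stood at rank 4 in JCX1011, at ranks 10 to 21 in young mice and at ranks 17 to 24 in old mice. Each of these genes was above Cela3b in JCX1011. The part of these features in the values of Cela3b and Ctrc was not tested.

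**Figure D4:**
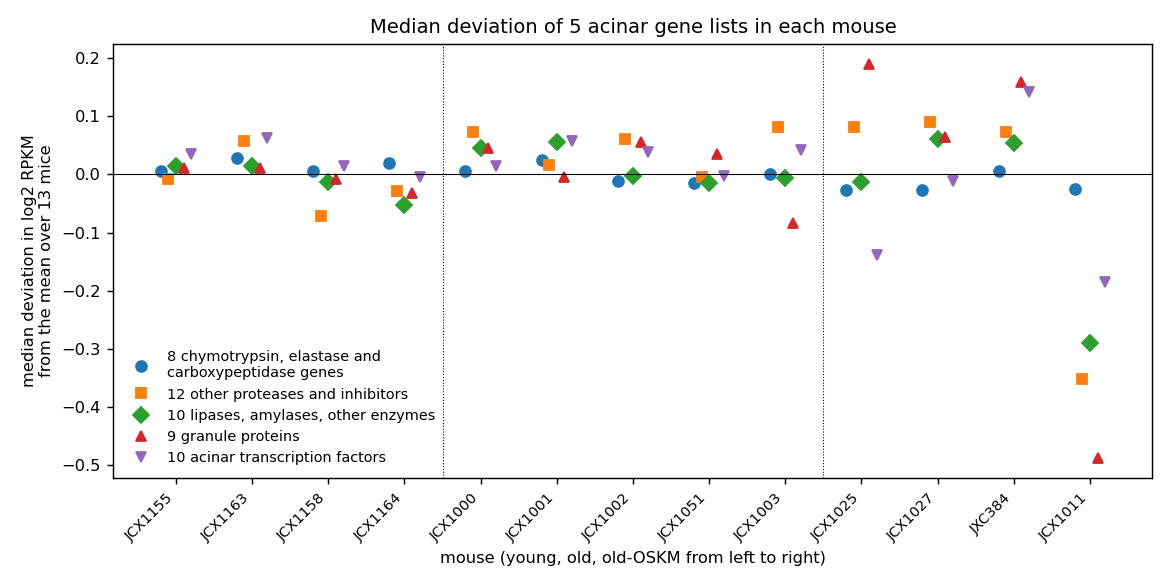
Median deviation in log2 RPKM of each mouse from the mean over 13 mice (vertical axis) for the 8 genes and for 4 other acinar gene lists, with mice in the order young, old and old-OSKM. JCX1011, at the right, lies at -0.03 for the 8 genes, of which Ctrb1 and Cela2a are constant, and between -0.49 and -0.19 for the other lists.

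Genes were ranked by how much they resembled the mean of the 8 centred members over the mice (Pearson r), among 8402 other genes with a mean log2 RPKM above 0. The members themselves shared no single pattern. Between pairs of the members that varied, r ran from -0.78 (Ctrc and Cela3b, -0.29 without JCX1011) to 0.58 (Cela3b and Cpa1), and Ctrb1 and Cela2a were constant. Likeness to the mean is therefore not likeness to each member. The member mean itself moved only between -0.05 and 0.04 log2, and all points share the same normalization, so the values are a description of 13 mice. The 6 highest were Nr2f6 (r = 0.89, Spearman's rho = 0.81), Nrep (0.87, 0.79), Pex19 (0.84, 0.72), Pnlip (0.82, 0.80), Erf (0.82, 0.80) and Eef2k (0.82, 0.76). Without the 2 mice farthest from the median of the member mean, r was between 0.66 (Pnlip) and 0.78 (Nrep and Nr2f6). Pnlip was the only digestive enzyme gene among the 6.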

How the data were processed

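The pancreas of 13 mice was profiled by total RNA-seq after rRNA depletion. The authors aligned reads to mm10 with STAR 2.3.0e, estimated RPKM per isoform with Casper, leaving out reads with 5 or more locations, added the isoforms of each Entrez gene up, and put the result on a log2 scale with quantile normalization. The deposited values are log2 RPKM, without counts. The paper also describes a correction by total reads, and whether the deposited values contain it is unknown. The annotation given to Casper is not given in the sources used here.

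The values were used as deposited. All 23366 genes, of which 23273 matched a RefSeq symbol (GRCm38.p6), were fitted in limma 3.58.1 (R 4.3.3, lmFit and eBayes, default settings) with 3 groups and no covariate, and p-values were adjusted over all genes by Benjamini-Hochberg. The call was a fold change over 1.5 together with a raw p under 0.01. Exact two-sided permutation tests were run for single members. Python 3.11.15 with SciPy 1.17.1 and pandas 2.3.3 was used, and the fit was tested on simulated data. Gene positions came from GENCODE M21, and promoters from RefSeq. Members, lists and tests were chosen with earlier results of these data known. Named outside the members are the 2 genes of each list with the smallest raw p in old against young and in old-OSKM against old mice, and the 6 most like the member mean. Genes that passed a member in rank, and Ptf1a, Rbpjl, Rmrp and Rpph1 in JCX1011, were named after their values were seen.

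Alternatives were a repeated quantile normalization, centring on each mouse's median, pseudocounts of 1 and 0.1, a filter on low values, 2 groups alone, eBayes with trend and robust settings, a covariate for the run of sample identifiers, and each mouse left out. Leaving out JCX1011 and JCX1158 together, and log2 ranks in place of values, were added after the data were seen.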

Additional observations from a re-analysis of the deposited data

Results flagged for a closer look

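A mouse far from the others of its group was looked for in the 17 sets of values of a member in a group that varied, and 2 were found. The cut-off was one meant to flag about 1 set in 20 by chance. That rate need not hold here, because the values move in shared rank steps with ties. Ctrc was 5.12 in the old-OSKM mouse JCX1011, and its gap to the next mouse was 0.891 of the range of the group. Cpa1 was 10.24 in the young mouse JCX1163, where the other 3 young mice held one rank value, so that the gap was 1 time the range and amounts to a single rank.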

How the results depend on the processing

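No member reached the study's threshold under any of the alternatives, though on the log2 RPKM scale the top-rank members could pass it only by a move of several ranks. The sign of Ctrl in old against young mice and its raw p under 0.05 held in all of them, at -0.20 to -0.15 on the log2 RPKM scale. Many of them could hardly move this difference, which stayed at -0.17. These were repeated normalization, centring, either pseudocount, the low-value filter, 2 groups alone, the other eBayes settings and each old-OSKM mouse left out. On the log2 RPKM scale it moved only with the run as covariate and with young or old mice left out. The count of members with a raw p under 0.05 in old against young mice (1) was 2 with the run of sample identifiers as covariate, which added Cela1 (-0.13), and 1 to 2 when each mouse was left out. In old-OSKM against old mice (0) it was 1, Cela3b, with either pseudocount, with trend and robust eBayes and with log2 ranks, and 0 to 2 when each mouse was left out (2, Cela3b and Cpa1, without JXC384, and 1, Cpa1, without JCX1051). In old-OSKM against young mice (1) it was 2 with log2 ranks, which added Cpb1. The signs of small differences turned as follows: in old-OSKM against old mice Ctrc was -0.0048 to 0.2356 when each mouse was left out (-0.0048 without JCX1011, also with JCX1158 left out), and Cpb1 was 0.0052 with the run as covariate and -0.0313 to 0.0049 when each mouse was left out. In old-OSKM against young mice Ctrc was -0.0115 with the run as covariate, -0.1206 (without JCX1011) to 0.1198 when each mouse was left out and -0.1141 without both mice, Cela1 was -0.065 with the run as covariate and -0.023 to 0.0387 when each mouse was left out, and Cpa1 was -0.0334 to 0.0277 when each mouse was left out. The cause was not tested. No paired analysis was possible because the labels give no replicate numbers shared between groups. The normalization fixes the value at each top rank, so changes that leave the order of genes as it was cannot be seen, and without counts the counting error is unknown.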

Other observations

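Related peptidases made outside the acinar digestive set were also examined, 17 genes in all. In old against young mice none had a raw p under 0.05, and the smallest belonged to Cpxm2 (difference 0.54) and Cpe, a prohormone-processing carboxypeptidase of endocrine cells (-0.59), both with an adjusted p of 1 (limma). In old-OSKM against old mice 1 gene, Cpz, reached the threshold as higher, at -2.11 ± 0.45 (SD, n = 4) against -3.10 ± 0.61 (n = 5) log2 RPKM, a low level (difference 0.99, adjusted p = 0.547), where 0.753% of all genes reached it in either direction. Cpq differed by 0.29 there (adjusted p = 0.547), and 3 of the 17 had a raw p under 0.05, all as higher values, against 8.07% of all genes in either direction. The groups of Cpz and those of Cpq overlapped.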
